A study of Mus musculus with 9 samples.

Results

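Gata4, Gata6, Nkx2-5, Tbx5, Tbx20, Hand2, Mef2a, Mef2c, Mef2d and Myocd encode the core set of transcription factors that specify heart muscle and keep it differentiated. The set was taken by gene symbol, and every array probe whose accession maps to these symbols was read. This gave 20 probes (29 spots) for 10 genes, out of 41174 probes on the array. All 20 passed the filter on dim probes, which asked for a signal clearly over background on 4 or more of the 9 arrays, and the 10 genes stand among 27774 genes that were tested. These 27774 include entries without a matched gene symbol, each counted as a gene under its accession or probe name. Heart RNA came from male C57BL/6 mice aged 3 to 4 months that had received no treatment, and each heart was read on 1 single-colour Agilent array. The wild-type (WT) group held 5 hearts. The RORasg/sg group held 4 hearts of mice homozygous for staggerer, a germline deletion within Rora, so functional RORalpha is lacking throughout the body and not in heart muscle alone. The study's title places the comparison in work on RORalpha and hypertrophy during development and under angiotensin II, though no hormone was given to these mice.

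The factors act as a mutually reinforcing network. GATA factors are zinc finger proteins, Nkx2-5 is a homeodomain protein, Tbx5 and Tbx20 carry a T-box, Hand2 is a basic helix-loop-helix protein, and the MEF2 proteins belong to the MADS family, as does serum response factor (Srf). Myocardin, encoded by Myocd, does not bind DNA itself but activates transcription through Srf. In the adult heart these proteins drive contractile and natriuretic peptide genes and take part in the hypertrophic response. RORalpha binds DNA as a monomer at a half-site with the letters AGGTCA, preceded by an A- and T-rich stretch.

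The RefSeq promoter table (GRCm38.p6) held windows for 6 of the 10 genes: Nkx2-5, Tbx20, Hand2, Mef2a, Mef2c and Mef2d. In the 250 bases before each annotated start, AGGTCA was searched on both strands. It was found in 2 of 8 windows, both of Mef2c, with 3 matches in all. In all windows of that length in the table, 14.0% held it. The search did not ask for the A- and T-rich stretch before these letters. Both Mef2c windows with a match overlap the annotated gene, and another Mef2c window had none. The 3 stretches of 30 bases are printed on the strand of the gene because they are the places where the letters of the receptor's half-site occur near a start of these genes. Capitals mark the match, which lies on the opposite strand and so reads TGACCT. A match is a description of letters, and the windows without a match say nothing of the receptor.
Mef2c, chr13:83523407-83523436, match from 237 bases before the start: tttacttgctaaTGACCTggataaagtcca
Mef2c, chr13:83573479-83573508, match from 116 bases before the start: gtctgtagacagTGACCTcctccctgctga
Mef2c, chr13:83573523-83573552, match from 72 bases before the start: atctgttcacccTGACCTtccacccaaagt

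Values are given as log2 of the processed signal minus the array's 75th percentile, so a value of 0 is the array's own 75th percentile and a difference of 1 is a doubling. Rora, the mutated gene, had processed signals (not scaled between arrays) of 1242 to 6295 in WT hearts and of 44.6 to 819 in RORasg/sg hearts on its probe A_51_P477779, with no overlap. The 1242 was WT 4, and the other WT hearts read 4561 to 6295. Probe A_52_P652442 had no overlap either (1284 to 6785 against 12.3 to 922). On the dim probe A_52_P652950 the groups overlapped (14.6 to 65.0 in WT, 2.61 to 42.8 in RORasg/sg hearts). The arrays were not alike. The 75th percentile of processed signal was over 500 in WT 1, 2, 3 and 5 and RORasg/sg 1 (the 5 brighter arrays) and lay between 264 and 436 in WT 4 and RORasg/sg 2, 3 and 4 (the 4 dimmer arrays). The dimmer arrays also correlated less with the brighter WT arrays across genes (median r between 0.757 and 0.895, against at least 0.962 for the brighter ones). Brightness and genotype therefore overlap, with 1 RORasg/sg heart among the brighter arrays and 1 WT heart among the dimmer. The median log2 difference of all genes, RORasg/sg minus WT, was 0.41, and differences of single genes are to be read against it.

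None of the 10 factors passed the threshold (limma, Benjamini-Hochberg over 27774 genes, adjusted p under 0.05), and their adjusted p-values ran from 0.406 to 0.807. Over all genes tested, 0.0036% passed. Mean signal was lower in RORasg/sg hearts for 7 factors and higher for 3, where 33.4% of all genes were lower. The factors' median log2 difference was -0.47, below the 0.41 of all genes, and 8 of the 10 factors lay below that 0.41. At an unadjusted p under 0.05 there were 2 of 10 lower (Tbx20 and Mef2d) and 0 higher, where all genes together had 6.62% lower and 4.94% higher. For none of the 20 probes were the WT and RORasg/sg groups apart without overlap. Among all genes, 1.71% were lower and 1.12% higher without overlap. In this whole tissue, fewer cells that express a gene and less RNA per cell cannot be told apart.

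**Figure D1:**
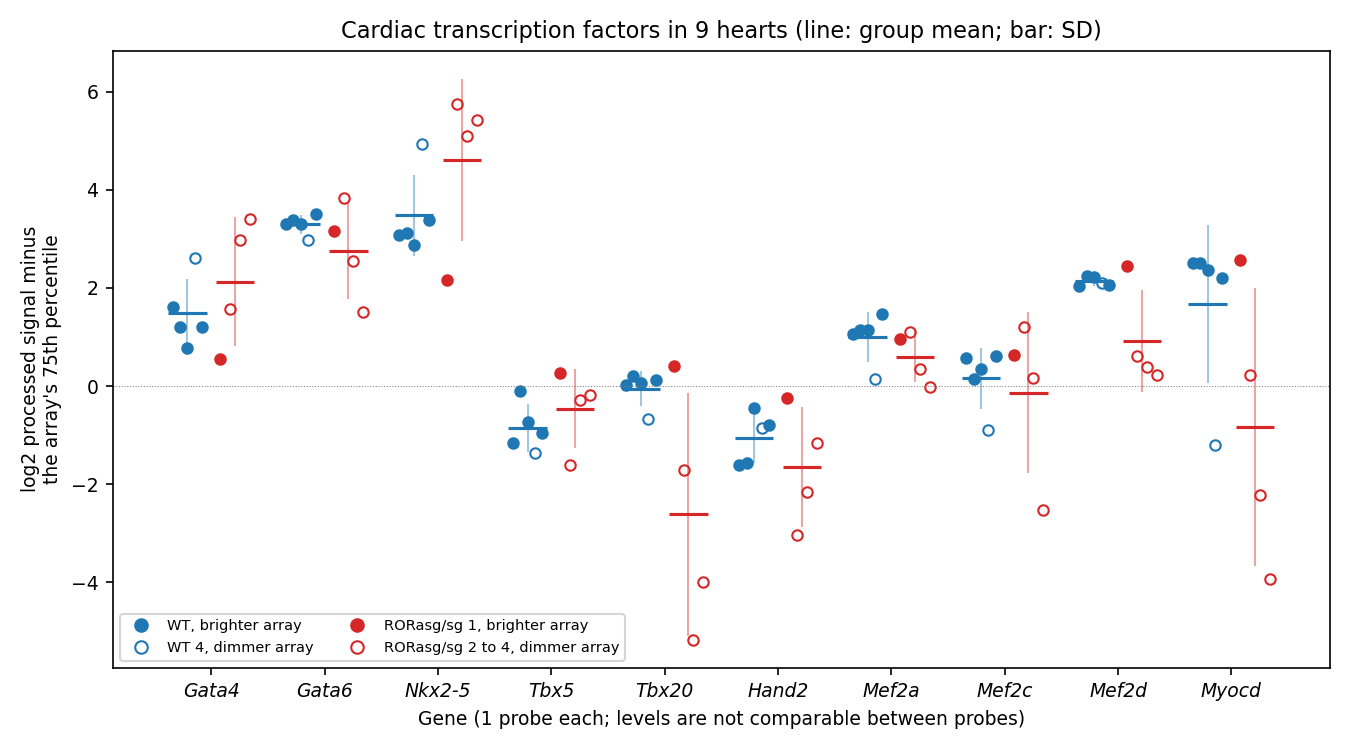
The level of each factor in each heart, on the probe that represents the gene, as log2 of the processed signal minus the array's 75th percentile (vertical axis), with blue for 5 WT and red for 4 RORasg/sg hearts, horizontal lines for group means and vertical bars for the SD. Open symbols are the dimmer arrays: in Nkx2-5 and Myocd the open WT symbol lies apart from the other WT hearts, and the filled RORasg/sg symbol lies apart from the other RORasg/sg hearts.

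The GATA factors did not differ beyond the spread between hearts. Gata4, a zinc finger activator of natriuretic peptide and contractile genes, read 1.60, 1.21, 0.77, 2.60 and 1.21 in WT hearts 1 to 5 on probe A_51_P492355, and 0.55, 1.57, 2.98 and 3.41 in RORasg/sg hearts 1 to 4. The highest WT value was that of WT 4, RORasg/sg 3 and 4 lay above every WT heart, and the lowest value of all was that of RORasg/sg 1. The log2 difference was 0.64 (SE 0.623, limma adjusted p = 0.535).

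A second Gata4 probe, A_52_P4201, was printed as 10 spots on each array and moved the other way. It read -2.88, -2.23, -1.98, -5.68 and -2.12 in WT hearts and -1.87, -4.25, -2.81 and -4.45 in RORasg/sg hearts, a difference of -0.37 (SE 0.815). In WT 4 it was the lowest of all hearts, whereas the other Gata4 probe was there the highest of the WT hearts. The coefficient of variation over the 10 spots of an array was 3.90% in RORasg/sg 1, at a mean processed signal of 211, and 7.91% in RORasg/sg 3, at 55.8. It was 53.2% in WT 4, where the mean signal was 8.48 and 2 of 10 spots were well above background. In RORasg/sg 2 and 4 it was 25.2% and 43.2%, with 6 of 10 spots well above background in each. Repeat spots give the spread within an array and not the spread between hearts.

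Gata6, the other GATA factor of heart muscle, had its brightest probe, A_51_P411917, at 3.30, 3.38, 3.30, 2.99 and 3.52 in WT hearts and at 3.17, 3.83, 2.54 and 1.52 in RORasg/sg hearts. The WT hearts were close together and the RORasg/sg hearts lay both above and below them. Its log2 difference was -0.53 (SE 0.463, limma adjusted p = 0.497). Probe A_52_P176245 read 0.06 to 0.85 in WT hearts and 0.20, 0.22, -1.15 and -2.21 in RORasg/sg hearts, a difference of -1.11 (SE 0.558). Its low values came from RORasg/sg 3 and 4, as on the brightest probe. The dim probe A_52_P590175 differed by 0.018 and did not exceed background clearly in RORasg/sg 2.

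Nkx2-5, the homeodomain factor of early cardiac commitment, had the largest difference on the higher side among the factors. Its processed signals were 5814, 5565, 4639, 13289 and 5720 in WT hearts and 3458, 15675, 13453 and 11379 in RORasg/sg hearts. The 4 dimmer arrays, WT 4 included, were the 4 highest of 9, although they were the arrays with the lowest overall signal, and RORasg/sg 1 was the lowest. Scaled to each array, WT hearts read 3.09, 3.11, 2.88, 4.93 and 3.39 and RORasg/sg hearts 2.16, 5.75, 5.11 and 5.43. The log2 difference was 1.13 (SE 0.701, 2.19-fold, limma adjusted p = 0.422).

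Direction depended on the arrays fitted. Without RORasg/sg 1, Nkx2-5 differed by 1.95 and passed (adjusted p = 0.0170). In the 5 brighter arrays, with RORasg/sg 1 as the sole heart of its group, it differed by -0.96 and passed on the lower side (adjusted p = 0.0492). With brightness as a covariate it was -0.24. The array carried 1 probe for this gene.

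Among the T-box factors, Tbx5 and Tbx20 behaved unlike each other. Tbx5, an activator of chamber and conduction genes that works with Gata4 and Nkx2-5, read -1.15, -0.10, -0.72, -1.36 and -0.95 in WT hearts on probe A_52_P523712, and 0.26, -1.62, -0.29 and -0.18 in RORasg/sg hearts. RORasg/sg 1 was the highest and RORasg/sg 2 the lowest of all. The log2 difference was 0.40 (SE 0.494, limma adjusted p = 0.620), and it lay at the median of all genes (0.41), with or without scaling between arrays (-0.17 for both without it). The dimmer probe A_51_P469338 read -3.31 to -1.55 in WT hearts and -2.87, -2.26, -0.43 and 0.07 in RORasg/sg hearts, a difference of 1.12 (SE 0.649).

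Tbx20, a T-box factor needed for adult heart muscle function, had the lowest log2 difference of the 10, at -2.56 (SE 0.917, 5.91-fold less, limma unadjusted p = 0.0161 and adjusted p = 0.406). Probe A_51_P427619 read 0.03, 0.20, 0.06, -0.67 and 0.13 in WT hearts and 0.42, -1.71, -5.17 and -4.0 in RORasg/sg hearts. RORasg/sg 2, 3 and 4 lay below every WT heart, and RORasg/sg 1 lay above every WT heart. The processed signals behind the extremes were 1033 in RORasg/sg 1 and 10.8 in RORasg/sg 3, and RORasg/sg 4 read 16.5. The size of the difference rests on these low signals and on the probe chosen. It was -1.43 with another background correction (normexp) and -1.19 with the mean of the gene's probes. Of all genes tested, 98.3% had a smaller difference in size than the -2.56 of the main fit.

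The other Tbx20 probes gave other sizes. Probe A_52_P429876, of the same accession (NM_194263), read -0.43 to -0.32 in the 4 brighter WT hearts, -1.72 in WT 4, and 0.47, -1.51, -2.44 and -4.25 in RORasg/sg hearts, a difference of -1.30 (SE 0.796). Probe A_51_P445173 carries the accession of another Tbx20 transcript (NM_020496) and was nearly level. It read -2.80 to -2.45 in WT hearts and -2.94, -2.0, -2.50 and -2.0 in RORasg/sg hearts, a difference of 0.29 (SE 0.385). Without RORasg/sg 1, the gene differed by -3.57 and passed (adjusted p = 0.00986), and in the 5 brighter arrays the sign turned, to 0.32 (adjusted p = 0.434).

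**Figure D2:**
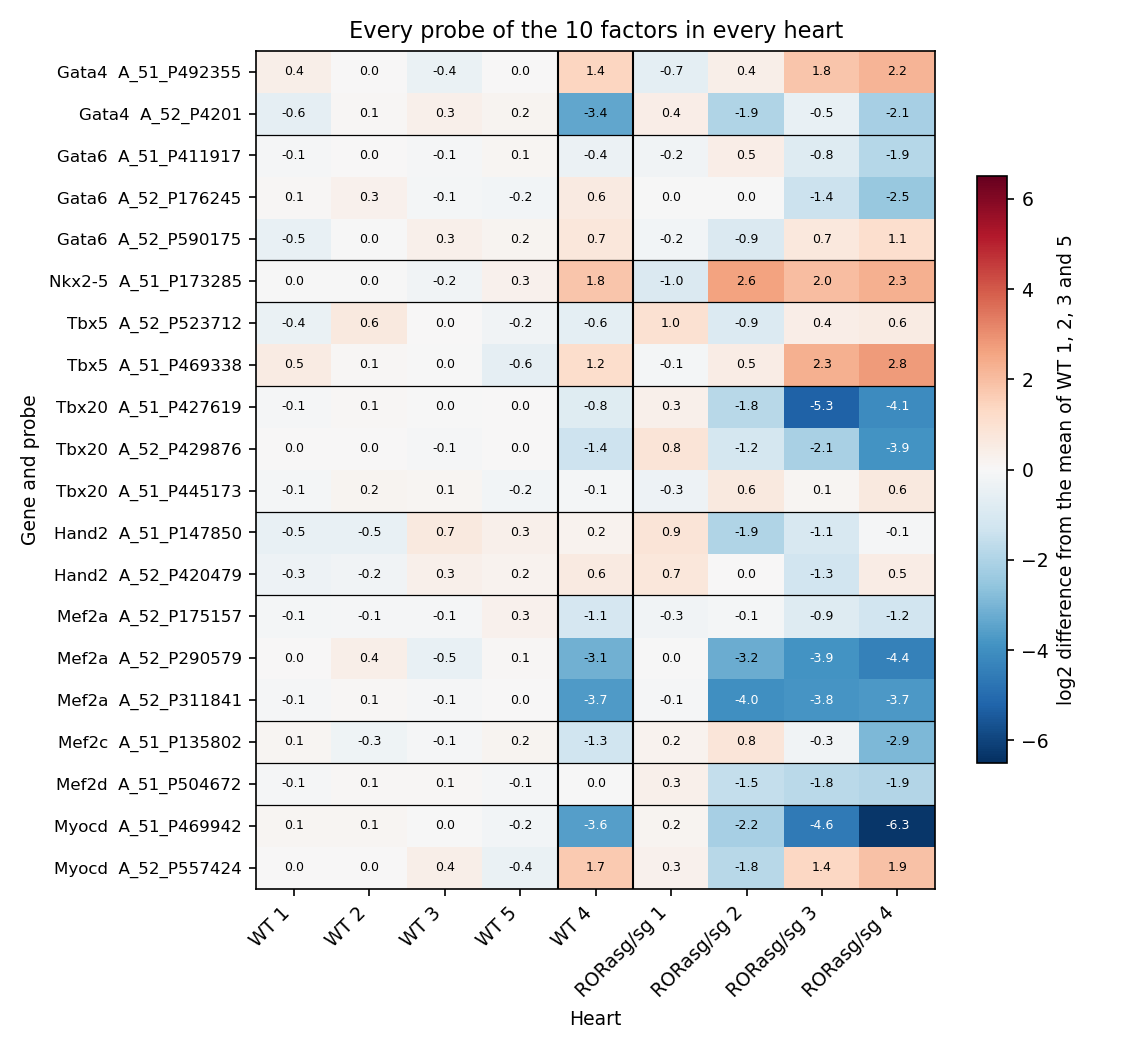
Every probe of the 10 factors (rows, with the gene) in every heart (columns), coloured and labelled by its log2 difference from the mean of WT 1, 2, 3 and 5, with red for higher and blue for lower. The column of RORasg/sg 1 is pale, while WT 4 and RORasg/sg 2, 3 and 4 share the deep blue of 2 Mef2a probes and of Myocd probe A_51_P469942, next to red on the other Myocd probe in WT 4 and RORasg/sg 3 and 4.

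Hand2, the basic helix-loop-helix factor of right ventricular development, read -1.60, -1.58, -0.44, -0.86 and -0.79 in WT hearts on probe A_51_P147850, and -0.24, -3.04, -2.17 and -1.16 in RORasg/sg hearts. RORasg/sg 1 was the highest of all hearts and RORasg/sg 2 and 3 the lowest. Its log2 difference was -0.60 (SE 0.579, limma adjusted p = 0.536). On probe A_52_P420479 the values were -1.91 to -0.99 in WT hearts and -0.85, -1.56, -2.85 and -1.09 in RORasg/sg hearts, a difference of -0.13 (SE 0.493). Both Hand2 probes stayed close in WT 4 (0.35 apart in their deviation from the brighter WT hearts), unlike the probes of Gata4 and Myocd. They lay 1.95 apart in RORasg/sg 2, and 0.20 and 0.55 apart in RORasg/sg 3 and 4.

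The MEF2 factors, MADS-box activators that are held in check by class IIa histone deacetylases, all had lower mean signal in RORasg/sg hearts. Mef2a, a MEF2 factor of adult heart muscle, had 3 probes, and they differed widely. Probe A_52_P175157 (accession NM_001291196) represents the gene because its mean over the 9 arrays was the highest. It read 1.06, 1.15, 1.15, 0.14 and 1.47 in WT hearts and 0.96, 1.09, 0.36 and -0.02 in RORasg/sg hearts, a log2 difference of -0.40 (SE 0.451, limma adjusted p = 0.590).

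The other Mef2a probes, both of accession NM_001033713, split the hearts by array brightness. Probe A_52_P290579 had processed signals of 3679, 4533, 2387, 263 and 3053 in WT hearts and 4112, 165, 140 and 66.9 in RORasg/sg hearts. Probe A_52_P311841 had 1683, 1786, 1571, 88.7 and 1455 in WT hearts and 1934, 47.8, 72.2 and 51.0 in RORasg/sg hearts. On both, WT 4 fell with RORasg/sg 2, 3 and 4 and RORasg/sg 1 with the other WT hearts, and no value lay between these sets. The log2 differences were -2.25 (SE 0.950) and -2.16 (SE 0.985), with unadjusted p of 0.0360 and 0.0488 and limma adjusted p of 0.382 and 0.390 over all probes kept. Against the mean of the 4 brighter WT hearts, the second of them deviated by -3.67 in WT 4, by -0.053 in RORasg/sg 1 and by -3.85 on average in RORasg/sg 2, 3 and 4.

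Mef2c, the MEF2 factor of early heart tube formation, which endothelial cells also express, read 0.56, 0.15, 0.34, -0.89 and 0.61 in WT hearts and 0.63, 1.20, 0.17 and -2.52 in RORasg/sg hearts. RORasg/sg 2 was the highest and RORasg/sg 4 the lowest of all hearts. The log2 difference was -0.29 (SE 0.706, limma adjusted p = 0.807), and without RORasg/sg 4 it turned to 0.51. The gene, whose promoter windows hold the 3 AGGTCA matches above, had the difference nearest to 0 among the 10, though not nearest to the median of all genes, and 4 of the other genes had no window to search.

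Mef2d, the MEF2 factor tied to stress-dependent remodelling, showed another pattern. It read 2.04, 2.24, 2.23, 2.11 and 2.05 in WT hearts, with an SD of 0.0937 (n = 5), and 2.45, 0.61, 0.38 and 0.24 in RORasg/sg hearts. Here WT 4 lay inside the range of the other WT hearts although its array was dim, RORasg/sg 2, 3 and 4 lay well below every WT heart, and RORasg/sg 1 lay above them all. The log2 difference was -1.21 (SE 0.497, 2.32-fold less, unadjusted p = 0.0308, limma adjusted p = 0.418). Without RORasg/sg 1 it was -1.72 and passed (adjusted p = 0.00617), while the 5 brighter arrays gave 0.31 (adjusted p = 0.370) and the 4 dimmer arrays -1.70 (adjusted p = 0.684).

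Myocd, the cofactor of Srf in heart and smooth muscle, had processed signals of 3884, 3653, 3253, 190 and 2508 in WT hearts on probe A_51_P469942 and of 4565, 340, 83.7 and 17.4 in RORasg/sg hearts. WT 4 lay with the dimmer RORasg/sg hearts and RORasg/sg 1 was the highest of all. On the scaled values, WT hearts averaged 1.68 ± 1.61 (SD, n = 5) and RORasg/sg hearts -0.84 ± 2.84 (SD, n = 4), a difference of -2.52 (SE 1.19, limma adjusted p = 0.418). The difference was -1.82 with normexp background correction and -1.21 with the mean of the gene's probes. Without WT 4 the difference was -3.24 (adjusted p = 0.297), and without RORasg/sg 1 it was -3.65 and passed (adjusted p = 0.0306). In the 5 brighter arrays it was 0.17 (adjusted p = 0.635).

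The second Myocd probe, A_52_P557424, had the same accession and did not follow the first. It read -0.32, -0.35, -0.01, 1.36 and -0.79 in WT hearts and -0.07, -2.19, 1.0 and 1.55 in RORasg/sg hearts, a difference of 0.094 (SE 0.745). WT 4 and RORasg/sg 3 and 4, which were low on the first probe, were the 3 highest here. In RORasg/sg 4 the 2 probes of this gene lay 8.24 apart in their deviation from the brighter WT hearts, against 0.13 in RORasg/sg 1.

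**Figure D3:**
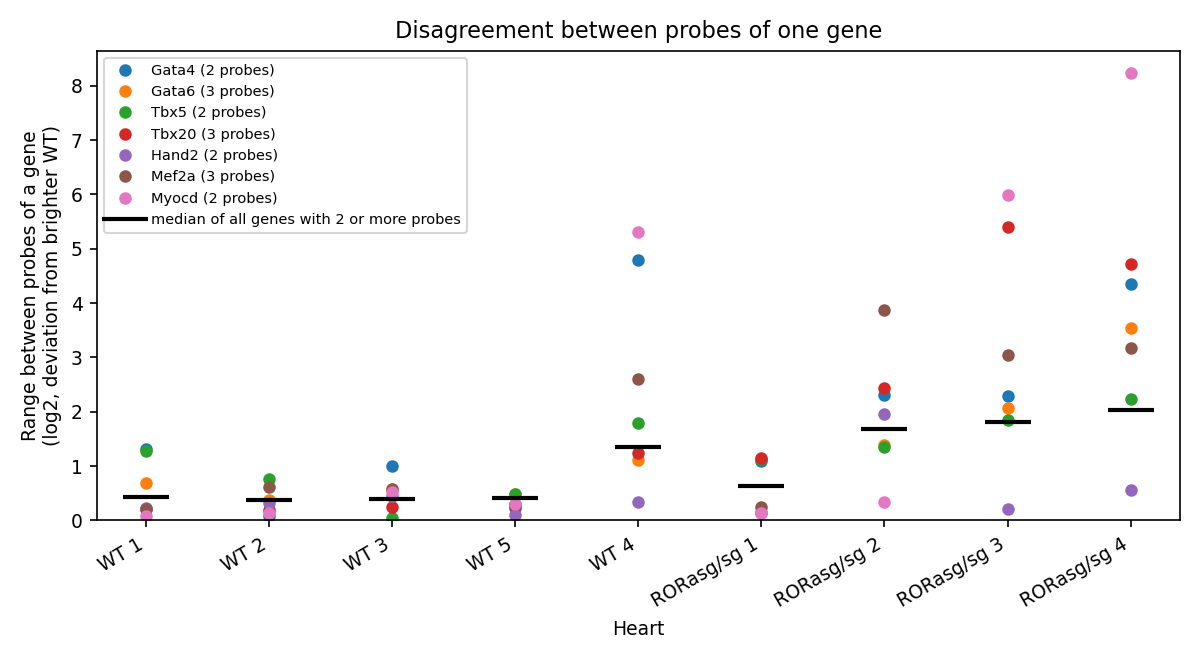
For each of the 7 factors with 2 or 3 probes, the range between its probes (vertical axis, log2) in their deviation from the brighter WT hearts, by heart; black bars give the median over the 6550 genes with 2 or more probes kept. The bars lie at or below 0.435 in WT 1, 2, 3 and 5 and between 1.35 and 2.04 in WT 4 and RORasg/sg 2, 3 and 4.

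Disagreement between probes of a gene was a property of the dimmer arrays in general. Over the 6550 genes with 2 or more probes kept, the median range between probes was 0.378 to 0.435 in the 4 brighter WT hearts, 0.64 in RORasg/sg 1, 1.35 in WT 4, and 1.69, 1.81 and 2.04 in RORasg/sg 2, 3 and 4. Among the factors in WT 4 it ran from 0.35 for Hand2 to 5.31 for Myocd. What sets these 4 arrays apart was not tested.

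WT 4 and RORasg/sg 1 were compared with the other hearts probe by probe. Against the 4 brighter WT hearts, 10 of the 20 probes were below their range and 7 above it in WT 4, 5 below and 9 above in RORasg/sg 1, and 11 below and 7 above in RORasg/sg 4. Of all probes kept, 31.9% were below and 43.0% above in WT 4, 44.3% and 19.8% in RORasg/sg 1, and 32.8% and 53.4% in RORasg/sg 4. The median size of the deviation over the 20 probes was 1.12 in WT 4, 0.30 in RORasg/sg 1, and 1.05, 1.39 and 2.18 in RORasg/sg 2, 3 and 4. Over all probes kept it was 0.83, 0.50, 1.08, 1.23 and 1.39 in the same hearts. WT 4 and the mean of RORasg/sg 2, 3 and 4 deviated to the same side on 15 of 20 probes, and on 74.3% of all probes. In RORasg/sg 1, 14 of the 20 probes were within 0.5 of the brighter WT mean, a cut close to the median size of 0.50 over all probes kept.

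At the level of single probes, 0 of 20 passed in limma over the 36404 probes kept, of which 0.00275% passed. There were 4 of 20 with an unadjusted p under 0.05, all lower (1 probe of Tbx20, 2 of Mef2a and 1 of Mef2d), where 8.27% of all probes were lower at that p.

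**Figure D4:**
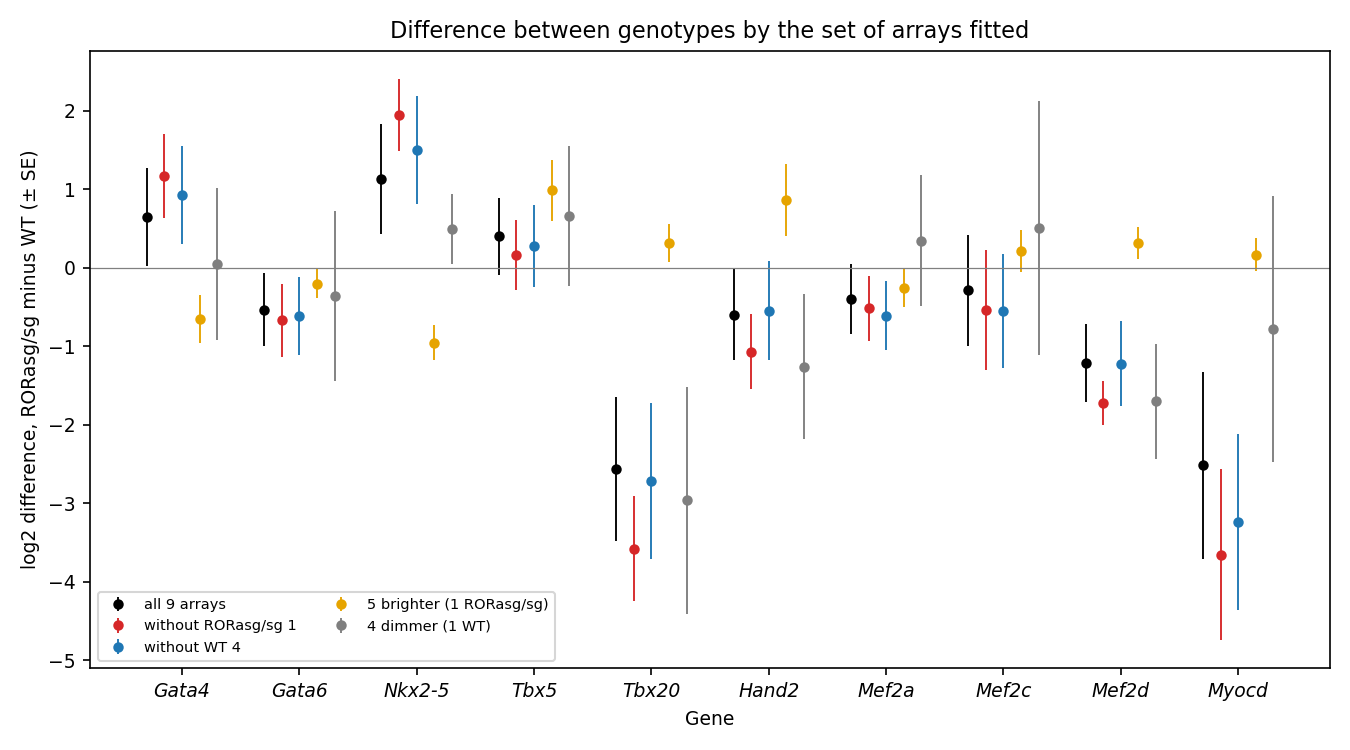
The log2 difference of each factor, RORasg/sg minus WT, with its SE (bars), from all 9 arrays and from 4 smaller sets. For Tbx20, Mef2d and Myocd the 5 brighter arrays, with a single heart of the RORasg/sg group, give small values above 0 (0.32, 0.31 and 0.17) and the other sets values below 0, and for Nkx2-5 the signs are the other way round.

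Leaving out RORasg/sg 1 made 4 of the 10 factors pass: Nkx2-5 on the higher side and Tbx20, Mef2d and Myocd on the lower side. In that fit 8.89% of all genes passed as lower and 28.5% as higher, so the background was high in both directions, and every remaining RORasg/sg heart was a dimmer array. In the 5 brighter arrays 1 of 10 passed (Nkx2-5, lower), with 4.29% of all genes called. The members' median was then 0.19, against -0.34 for all genes. In the 4 dimmer arrays the median was -0.15 against 0.50, and no gene of the table passed. With arrays weighted by quality 7 of 10 passed, 5 lower and 2 higher, in a fit where 16.7% of all genes passed as lower and 38.3% as higher. Fits on the brighter or the dimmer set take a lone heart to vary like the hearts of the other group.

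Profiles were compared over the 9 arrays by the root mean square difference after centring each gene on its own mean. Among the factors, Gata6 and Mef2a were closest (0.36), and Nkx2-5 and Myocd farthest apart (3.44). Gata4 was nearest to Nkx2-5 among the factors (0.74). Among all genes no factor was among the 3 nearest genes of another factor, which says little because the factors are few among the many genes compared. The distance also depends on how much a profile varies. The SD over arrays was 0.49 for Mef2a and 0.64 for Gata6, against 1.24 for Nkx2-5 and 2.32 for Myocd. Nkx2-5 lay nearest to Spns2 (0.089), Mrpl20 (0.094) and Pnpla2 (0.105), Mef2a to Rab18 (0.099) and Sspn (0.102), Gata4 to Cngb1 (0.12), Gata6 to Clic4 (0.14), and Mef2d to Zkscan8 (0.17). Tbx20 lay nearest to Map7d1 (0.21), Hand2 to Rnaseh1 (0.23), Mef2c to Slc25a44 (0.24), Tbx5 to AK202246 (0.27), and Myocd to BC030004 (0.36).

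Partner factors of the network differed by mean in both directions, none past the threshold. The 36 listed include other T-box, GATA, HAND, Iroquois and NFAT factors, Srf and its myocardin-related cofactors, class IIa histone deacetylases, and further factors and cofactors outside these classes. Of them 33 were measured, with 17 higher and 16 lower in RORasg/sg hearts by mean. By limma 0 passed, and an unadjusted p under 0.05 was reached by 2 on each side, where 6.62% of all genes were lower and 4.94% higher. Their median log2 difference was 0.07, against 0.41 for all genes. Gata5 and Hand1 did not pass the filter on dim probes.

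Srf, the MADS-box factor through which myocardin acts, read 4.50, 4.77, 4.80, 4.95 and 5.07 in WT hearts and 4.48, 3.83, 3.28 and 2.09 in RORasg/sg hearts. Every RORasg/sg heart was below every WT heart, RORasg/sg 1 by a narrow margin, and WT 4 stayed with the WT hearts. The log2 difference was -1.40 (SE 0.447, limma adjusted p = 0.385). Nfatc3, a calcineurin-dependent factor of hypertrophy, differed by -1.91 (SE 0.613), with RORasg/sg 1 at 1.87 inside the WT range and the other RORasg/sg hearts at -1.24, -1.05 and -0.16. The myocardin-related cofactors Mrtfb and Mrtfa differed by 1.40 (SE 0.517) and 1.81 (SE 0.711), with overlapping groups. Irx3, an Iroquois factor of the conduction system, named after its values were seen, was the other partner without overlap: WT hearts read -1.04 to -0.75 and RORasg/sg hearts -1.79, -1.24, -4.14 and -1.24 (-1.20, SE 0.588, limma adjusted p = 0.418). Of all genes, 1.71% were lower without overlap.

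Cardiac target genes of these factors had lower mean signal more often. Of 30 listed contractile, calcium handling, channel and natriuretic genes, 29 were measured, with 23 lower (79.3%) and 6 higher, where 33.4% of all genes were lower. Their median log2 difference was -1.0. By limma 0 passed, and an unadjusted p under 0.05 was reached by 12 on the lower and 2 on the higher side. Of all genes, 6.62% were lower and 4.94% higher at that p. Without overlap between the groups there was 1 lower and 0 higher, where all genes had 1.71% and 1.12%. Nppb, which encodes the B-type natriuretic hormone of ventricular muscle, read 1.77, 1.81, 2.39, 2.41 and 2.45 in WT hearts and 0.99, 1.31, 0.19 and 0.34 in RORasg/sg hearts, with no overlap, WT 4 with the WT hearts and RORasg/sg 1 with the RORasg/sg hearts (-1.46, SE 0.419, limma adjusted p = 0.375). Ankrd1, a stretch-responsive cofactor, differed by -1.76 (SE 0.496), Acta1, skeletal actin, by -2.59 (SE 0.735), and Myl7, the atrial light chain, by 1.60 (SE 0.487), each with overlapping groups. Against the brighter WT hearts, the median of the 29 genes stood at 0.19 in WT 4 and -0.062 in RORasg/sg 1, and at -0.38, -1.28 and -1.67 in RORasg/sg 2, 3 and 4. Single genes departed from this median: Ankrd1 and Nppb were below every WT heart in RORasg/sg 1 as well.

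Smooth muscle target genes of myocardin were split evenly, with 5 of 10 lower and a median of 0.22. Myh11 (-1.22, SE 0.557) and Acta2 (-1.28, SE 0.587) were lower at an unadjusted p under 0.05, and 0 passed after adjustment in limma. Of all genes, 6.62% were lower at that unadjusted p.

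**Figure D5:**
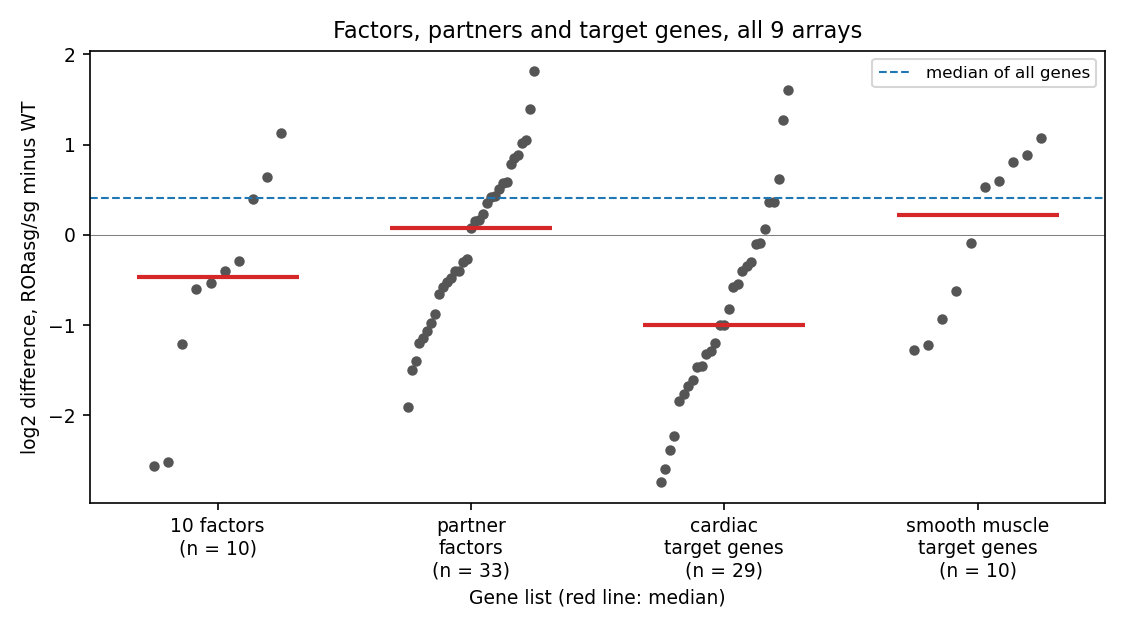
Log2 differences, RORasg/sg minus WT, of the 10 factors, 33 partner factors, 29 cardiac target genes and 10 smooth muscle target genes of myocardin over all 9 arrays (points), with each list's median in red and the median of all genes as a dashed line at 0.41. The medians lie at -0.47, 0.07, -1.0 and 0.22.

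Markers of the cells in the samples were compared beside these results. All 12 cardiomyocyte markers were well above background on all 9 arrays, as the label of heart requires. By mean 10 of 12 were lower, where 33.4% of all genes were, and the 4 with the smallest p were Tcap (-1.06), Pln (-1.46), Actc1 (-1.32) and Myh6 (-2.74). The 10 lower differences ran from -2.74 to -0.018, so some were nearly level. Against the brighter WT hearts, the median of this list stood at 0.20 in WT 4. It was -0.24, 0.37, -0.76 and -0.93 in RORasg/sg 1 to 4, so not every RORasg/sg heart was low. Tcap spots were left out as outliers on RORasg/sg 1 and 2, and the summed level of the other 11 (relative to the 75th percentile) was 924 to 1158 in WT and 754 to 1273 in RORasg/sg hearts. The ventricular list had 5 of 6 lower, with a summed level of 258 to 310 in WT and 81.7 to 275 in RORasg/sg hearts, and 6 of 8 atrial markers were higher. Endothelial markers, of cells that also express Mef2c, had 6 of 10 lower (127 to 245 in WT, 112 to 292 in RORasg/sg). Among them Tek (-2.67), Pecam1 (-1.50) and Tie1 (-2.84) were lower and Emcn (1.21) higher by mean, and Tek was well above background in 3 and Tie1 in 2 of 4 RORasg/sg hearts. Fibroblast markers had 6 of 10 higher (62.8 to 105 and 92.2 to 226), smooth muscle and pericyte markers 7 of 10 higher, macrophage markers 5 of 10 higher, epicardial and mesothelial markers 6 of 7 higher (1.57 to 4.60 and 2.27 to 14.8), erythroid markers 3 of 5 higher and skeletal muscle markers 2 of 7 higher. Counts of higher markers are to be read against all genes, of which 18506 of 27774 were higher by mean. Measured markers had passed the filter on dim probes, so each was well above background on 4 or more arrays by that choice. The part of cell makeup in the differences of the factors was not tested.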

How the data were processed

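The deposited intensity of each spot was made by the authors with Agilent Feature Extraction 12.0.0.7 (grid build mm9), per the file headers; it is linear, with background taken off, and unscaled across arrays. Other deposited columns are flags. Intensities in the deposited value table were identical to these (largest relative difference 0 on each array), so its scale and centring are known. Per the labels' protocols, 70 ng of RNA was amplified (NuGEN Ovation Pico WTA) and 5 ug of product labelled with Cy3.

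Spots with an outlier flag (758 of all non-control spots over 9 arrays) were left out, 0 were saturated, and repeat spots were averaged by probe. Signals were scaled, as log2, to the 75th percentile over the 43379 non-control spots. Probes well above background on at least 4 arrays were kept (36404 of 41174). A gene is represented by its kept probe with the highest mean. Accessions matched 28223 probes to 19096 RefSeq symbols (GRCm38.p6). A probe without a match was counted under its accession or probe name, so a gene can be counted more than once among all genes. Groups were compared across all genes with limma 3.58.1 under R 4.3.3 (lmFit, then eBayes with an intensity trend) and the Benjamini-Hochberg threshold was 0.05. The limma comparison alone was first run on simulated gene values with known changes, and the steps before it were not simulated. The simulated spread came from the brighter WT arrays, so the differences of the dimmer arrays were not part of it. Probe values come from a fit on all kept probes. Figures were drawn with matplotlib 3.10.9.

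The members, the lists, the tests and the alternatives were chosen with earlier results of these data known. Named are all probes of the 10 factors, at most 4 genes per list, those with the smallest p, plus Irx3, and up to 3 nearest profiles per factor. The labels number the hearts and do not say whether mice were littermates. The number of arrays limits the precision. One listed gene is not reported here by name. Replicates 1 and 2 of both groups were on slide 1, replicates 3 and 4 of both on slide 2, and WT 5 alone on slide 3.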

Additional observations from a re-analysis of the deposited data

Results flagged for a closer look

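In 9 of 40 groups tested (20 probes, each in the WT and in the RORasg/sg hearts), the highest or lowest heart stood apart from the rest of its group by more than Dixon's 95% critical value. Chance flags about 1 in 20 groups, and probes read on the same heart are not independent. WT 4 was the heart that stood apart in 7 of the 9. It was low on Gata4 probe A_52_P4201 (-5.68), Tbx20 probes A_51_P427619 (-0.67) and A_52_P429876 (-1.72), Mef2a probes A_52_P290579 (-0.73) and A_52_P311841 (-2.30) and Myocd probe A_51_P469942 (-1.20), and high on Nkx2-5 probe A_51_P173285 (4.93). RORasg/sg 1 stood apart in the other 2, high on Mef2a probe A_52_P311841 (1.32) and on Mef2d probe A_51_P504672 (2.45). Values are log2 around each array's 75th percentile. In each case the heart that stood apart was the 1 array of its genotype in the other brightness set.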

How the results depend on the processing

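Over 25 alternatives for each of the 10 factors (250 values), 221 kept the sign and the side of the threshold, 11 passed the threshold with the same sign and 18 turned sign. The alternatives are not independent. Changing the filter on dim probes or fitting each probe by itself left every factor's difference as in the main fit, so no sign could turn. Slide as a block, the replicate number as a block and leaving out WT 5 gave the same difference for each factor. Genome-wide counts were 2 with quantile normalization, 3 without scaling, 0 with normexp, with only probes clearly over background on every array, with the mean of probes, with slide as a block, within slide 1, within slide 2 and in the 4 dimmer arrays, 15284 with array weights and 1190 in the 5 brighter arrays. Without single arrays they ran from 0 to 10392, the highest without RORasg/sg 1. Factors passing were 7 with array weights (2 higher, 5 lower), where 38.3% of all genes passed as higher and 16.7% as lower. Without single arrays 0 to 4 factors passed. The 4 were without RORasg/sg 1, where 28.5% of all genes passed as higher and 8.89% as lower.

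The members' median log2 difference was -1.04 without scaling, -0.81 with array weights, -0.069 within slide 1, -0.96 within slide 2, 0.19 in the 5 brighter arrays, -0.15 in the 4 dimmer arrays and -0.22 with brightness as a covariate, and -0.65 to -0.15 without single arrays. Without scaling the sign of Tbx5 turned (-0.17) with the median of all genes (0.41 to -0.17), so relative to all genes it did not change. Within slide 1 they turned for Gata4 (-0.35), Gata6 (0.16), Tbx5 (-0.055) and Mef2c (0.55). In the 5 brighter arrays they turned for Gata4 (-0.65), Nkx2-5 (-0.96), Tbx20 (0.32), Hand2 (0.86), Mef2c (0.21), Mef2d (0.31) and Myocd (0.17), in the 4 dimmer arrays for Mef2a (0.34) and Mef2c (0.51), with brightness as a covariate for Gata4 (-0.21), Nkx2-5 (-0.24) and Mef2c (0.39), and without RORasg/sg 4 for Mef2c (0.51, the highest of -0.73 to 0.51 without single arrays). The cause was not tested. With the replicate number as a block (replicate block), 9 genes were called and 0 factors passed. Deviations of same-numbered hearts correlated at 0.046, -0.0064, -0.33 and 0.39 for numbers 1 to 4. As 1 of 4 was over 0.1, the hearts were taken to share only a number, although WT 4 and RORasg/sg 4 were each other's best match. Both were dimmer arrays, and WT 4 was also the best match of RORasg/sg 3, so these matches cannot show whether hearts were paired. Signal over background limits Gata4 probe A_52_P4201 in WT 4 and Gata6 probe A_52_P590175 in RORasg/sg 2.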
